A study of Mus musculus with 24 samples.

Results

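In embryonic mouse kidney, a pair of knockout effects was compared: the effect of a triple knockout of Dmrt2, Hmx3 and Hmx2 and the effect of a Dmrt2 knockout, each taken against controls of its own line. An effect is the log2 ratio of a knockout group to its controls, and the difference between the 2 effects (triple minus Dmrt2) asks what the added loss of Hmx2 and Hmx3 changes on top of the loss of Dmrt2. Only this difference is tested, not either effect alone. The rule selected the libraries of 2 deposited count tables, which are 12 of the 24 libraries of the series.

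The tissue was whole kidney of mouse embryos at embryonic day 18.5, profiled by bulk RNA sequencing of polyadenylated RNA. The 4 groups hold 3 libraries each: Dmrt2 KO and Dmrt2 control from the line labelled Dmrt2, and 3XKO (genotype label Dmrt2; Hmx3; Hmx2 KO) and 3XKO control from the line labelled Dmrt2/Hmx2/Hmx3. The controls are littermates per the series text. A further 12 libraries, 6 of an Hmx3; Hmx2 knockout and 6 of its controls, enter 1 three-way test below. The labels describe no allele, no removed exon, no genotype of the control embryos and no background strain, and nothing in them limits a knockout to 1 cell type. They also do not say that libraries of a group are from separate embryos, so the spread that the p-values rest on is that of these libraries and can be partly technical. The line, its controls and its deposited table go together and cannot be told apart.

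Intercalated cells line the collecting duct and move acid and base between urine and blood. Type A cells secrete acid and carry the anion exchanger Slc4a1 on the blood side, whereas type B cells secrete bicarbonate through the exchanger Slc26a4 (pendrin) on the urine side, and non-A non-B cells carry Slc26a4 together with a urine-side proton pump. Foxi1 is the transcription factor required for all of them, Dmrt2 is a DM domain transcription factor known from type A cells, and Hmx2 and Hmx3 are neighbouring homeobox genes. In whole kidney RNA, fewer cells of a type and less RNA per cell cannot be told apart.

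The targeted genes were read first. Levels are given in CPM, a gene's reads scaled to a common library total with TMM factors. Dmrt2 (chr19:25649775-25656355, mm39) stood at 12.2, 13.9 and 14.9 CPM in the Dmrt2 controls, 2.14, 2.26 and 1.56 in the Dmrt2 knockouts, 10.7, 12.1 and 11.6 in the 3XKO controls and 18.2, 17.7 and 19.2 in the 3XKO libraries. The 3XKO libraries were therefore the highest of the 4 groups, and no loss of Dmrt2 RNA is visible in them. Reads outside a removed part of the gene would still be counted, and whether this is the case was not tested. The groups are called the libraries labelled 3XKO for this reason, and every direction below rests on that label. Dmrt2 RNA was low in the Dmrt2 knockouts and not in these libraries, so Dmrt2 may not be altered alike in the 2 lines. For every gene below, added loss of Hmx2 and Hmx3 cannot be told apart from an unlike alteration of Dmrt2. The difference for Dmrt2 was 3.49 ± 0.17 (log2 ± SE, adjusted p = 1.66e-09, edgeR quasi-likelihood test with Benjamini-Hochberg adjustment, as for all adjusted p-values here unless named otherwise). The opposite-strand neighbour 2610016A17Rik (chr19:25648498-25649617) had a difference of 3.91 ± 0.60 (adjusted p = 0.0098), and was counted without regard to strand.

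Hmx2 (chr7:131150502-131159743) held 3.55, 3.56 and 5.03 CPM in the Dmrt2 controls, 14.3, 13.7 and 14.1 in the Dmrt2 knockouts, 2.45, 3.31 and 2.31 in the 3XKO controls, and 0, 0.0211 and 0 in the libraries labelled 3XKO. Only 2 reads were counted over these last 3 libraries, so the ratio of the 2 effects was 1430-fold lower for the triple knockout, with a 95% interval of 396 to 11800 by exact Poisson limits on those 2 reads alone. Both reads were in replicate 2, and a single pair can give 2 counts, so this interval is too narrow. The difference passed the test (adjusted p = 1.66e-09). Hmx3 (chr7:131144596-131146654) held 0 reads in the libraries labelled 3XKO and was low elsewhere, with means of 0.195 CPM in the Dmrt2 controls, 0.944 in the Dmrt2 knockouts and 0.0924 in the 3XKO controls. With 3 reads over the group as the floor, the ratio of the effects was 45.9-fold lower. This takes the other groups as exact, though Hmx3 had only 42 reads in the Dmrt2 controls and 30 in the 3XKO controls, so it is no firm bound. The difference was not called (adjusted p = 0.063). Both Hmx transcripts were thus at or near 0 in the libraries labelled 3XKO.

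The 2 intercalated genes with the largest positive and the largest negative difference are Aqp6 and Slc26a4, and the 250 bases before the start of each are shown to let a reader see the sequence beside the values (RefSeq, GRCm38.p6, another build than that of the tables; 5′ to 3′ on the gene's strand). Aqp6 is read from chr15:99600950-99601199 on the plus strand and Slc26a4 from chr12:31559985-31560234 on the minus strand, with a TATAAA run in capitals that begins 31 bases before the Slc26a4 start.
Aqp6: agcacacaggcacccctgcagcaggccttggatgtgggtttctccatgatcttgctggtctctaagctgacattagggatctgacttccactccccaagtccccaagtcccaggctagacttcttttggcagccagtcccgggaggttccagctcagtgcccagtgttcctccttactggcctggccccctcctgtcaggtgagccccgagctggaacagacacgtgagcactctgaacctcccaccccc
Slc26a4: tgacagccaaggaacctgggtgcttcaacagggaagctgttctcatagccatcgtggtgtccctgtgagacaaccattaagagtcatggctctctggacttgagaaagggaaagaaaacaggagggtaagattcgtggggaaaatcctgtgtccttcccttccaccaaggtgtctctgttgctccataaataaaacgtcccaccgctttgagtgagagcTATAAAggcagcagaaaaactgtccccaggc
Both windows were searched on both strands for CAATTA (reverse TAATTG), letters bound by many homeobox factors, for ACATTGT (reverse ACAATGT), a DM domain core, and for TATAAA (reverse TTTATA). Of 27025 windows of this length, 7.34% hold the first, 2.58% the second and 13% the third. Neither window holds either of the first 2, which says only that these letters are not there. RefSeq windows were found for 4 of 7 genes looked up.

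Total counts ran from 61563937 to 127339273 reads over the 12 libraries, and 3 reads, the floor for a gene with none, were worth 0.0236 to 0.0487 CPM. Y-linked genes were on in 3 of 3 Dmrt2 controls, 1 of 3 Dmrt2 knockouts, 2 of 3 3XKO controls and 2 of 3 libraries labelled 3XKO, so the sexes were not balanced between the groups. In all 12 libraries Foxi1 lay between 32.6 and 45.9 CPM, a level that shows intercalated cell RNA in each. Genes of neighbouring tissue had a summed level of 6.37 to 8.74 CPM over 9 genes for the adrenal gland, 5.88 to 8.22 over 7 genes for skeletal muscle and 210.1 to 275.3 over 5 genes for fat. The last was nearly all Fabp4, a fatty acid binding protein also made by endothelial cells and macrophages, at 209.8 to 275 CPM, while Adipoq, Plin1, Ucp1 and Cidea each stayed at or under 0.232.

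Replicate 2 of the libraries labelled 3XKO stood apart from replicates 1 and 3 for a set of genes with no place in an intercalated list. It was also the library of that group in which Y-linked genes were off, so fits without it change the balance of the sexes too. Tpm3-rs7, a gene closely related to the tropomyosin gene Tpm3, held 102, 105 and 95.5 CPM in the Dmrt2 controls, 1.94, 2.17 and 2.21 in the Dmrt2 knockouts, 1.07, 1.25 and 1.35 in the 3XKO controls, and 69.4, 1.39 and 63.6 in 3XKO replicates 1, 2 and 3. The steroid enzyme gene Hsd3b2 held 29.2, 23.5 and 23.4, then 1.83, 2.76 and 1.16, then 1.42, 1.91 and 1.16, then 16.6, 1.49 and 23.0 CPM in the same order. In both genes, 3XKO replicates 1 and 3 lay with the Dmrt2 controls and replicate 2 lay with the other 2 groups. Rps3a2, related to a ribosomal protein gene, had the same split, at 7.85 and 7.81 CPM in replicates 1 and 3 and 1.73 in replicate 2. Tpm3 itself was split the opposite way, at 263 and 246 CPM against 334. A read that matched a gene and its near-identical copy alike was left uncounted, so the levels of Tpm3, Tpm3-rs7 and Rps3a2 are uncertain.

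The differences of these genes were large and poorly determined. Tpm3-rs7 had a difference of 10.78 ± 1.64 (adjusted p = 0.077) and Hsd3b2 of 6.98 ± 1.21 (adjusted p = 0.11), and without 3XKO replicate 2 they became 11.34 (adjusted p = 1.37e-19) and 7.50 (adjusted p = 0.00039). They are not counted among the called genes below.

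**Figure D1:**
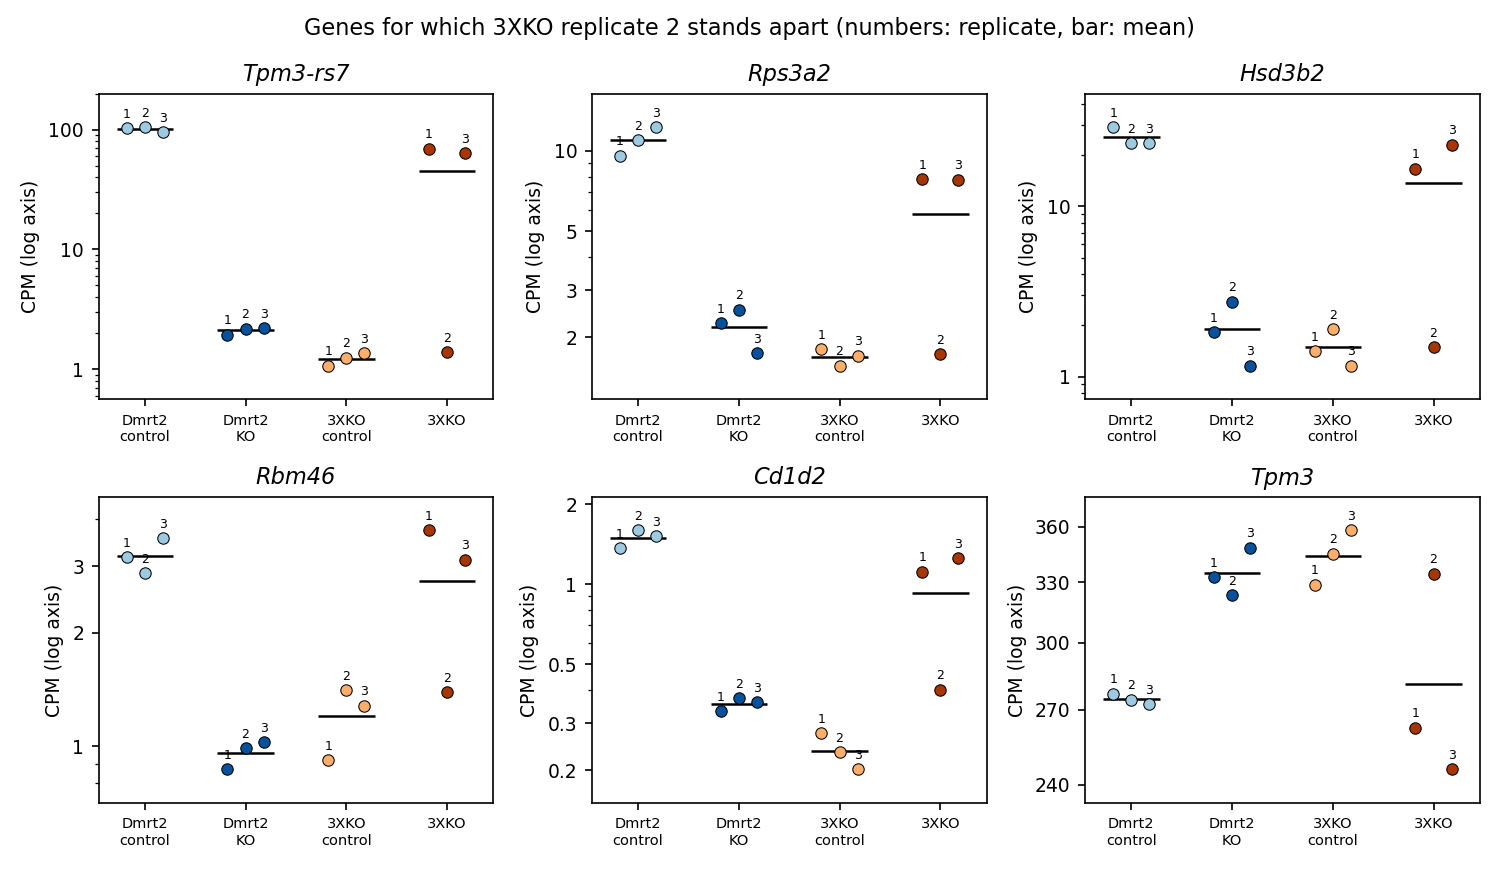
Levels of 6 genes in CPM (log axis) in each of the 4 groups of 3 libraries, with points numbered by replicate and a bar at the group mean. In Tpm3-rs7, Rps3a2, Hsd3b2, Rbm46 and Cd1d2 the second 3XKO library lies below the other two, and in Tpm3 it lies above them.

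Across all genes, 26 of 22423 tested passed the threshold of 0.05 on adjusted p and are called here, which is 0.116% of them. Of these, 16 were higher (0.0714%) and 10 were lower (0.0446%), 4 of the 26 have clone-like names, and the median difference over all genes was -0.0028. At an unadjusted p under 0.05 stood 2151 genes, or 9.59%. The number called depends on single libraries: it was 46 without 3XKO replicate 2 (21 of the 26 among them) and 9 without Dmrt2 KO replicate 2. With the presence of Y-linked reads as a covariate it was 15, with 13 of the 26 among them.

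Among the 3 intercalated lists, only the type A list held called genes. Of its 5 genes tested, 2 were called higher (Aqp6 and Kit), 0 were called lower, and 4 had a positive difference. Called genes made up 0.116% of all genes tested. An unadjusted p under 0.05 was seen in 4 of the 5, beside 9.59% of all genes. Members of the intercalated lists were chosen with earlier results of these data known, so such shares are no test of a list. The median over the 5 was 0.71, which is the value of Kit. Over all genes tested it was -0.0028, and 49.4% of genes lay above 0.

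Aqp6 (chr15:99499281-99503358) encodes an aquaporin of intracellular vesicles in acid-secreting cells. Its level was 12, 13.2 and 18.4 CPM in the Dmrt2 controls, 0.84, 0.909 and 0.61 in the Dmrt2 knockouts, 19.9, 18.4 and 13.1 in the 3XKO controls, and 7.53, 5.07 and 6.97 in the libraries labelled 3XKO. The 2 control groups overlapped, while the lowest library labelled 3XKO was above the highest Dmrt2 knockout. The difference was 2.86 ± 0.32 (adjusted p = 0.0073). It was 2.65 to 3.00 over 20 alternative settings, and it passed the threshold in 18 of them, the exceptions being limma-voom (adjusted p = 0.083) and the replicate block (adjusted p = 0.10).

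Kit (chr5:75735576-75817382) encodes the receptor of stem cell factor, found in intercalated cells and also in mast cells. It held 52.3, 54.5 and 54.9 CPM in the Dmrt2 controls, 38.8, 37.8 and 33.3 in the Dmrt2 knockouts, 52.2, 48.2 and 50.1 in the 3XKO controls and 51.9, 58.6 and 56.0 in the libraries labelled 3XKO. The Dmrt2 knockouts were the low group, and the 3XKO libraries overlapped their own controls. The difference was 0.71 ± 0.09 (adjusted p = 0.0017), called in 20 of 20 alternative settings.

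Slc4a1 (chr11:102239650-102257029), the blood-side chloride-bicarbonate exchanger of type A cells and the band 3 protein of red cells, did not pass the test. Its levels were 18.3, 15.5 and 17 CPM in the Dmrt2 controls, 3.13, 3.67 and 4.33 in the Dmrt2 knockouts, 16.7, 20.6 and 16.0 in the 3XKO controls and 7.73, 5.99 and 8.12 in the libraries labelled 3XKO. The knockout groups did not overlap and the control groups did. The difference was 0.91 ± 0.20 (adjusted p = 0.0996). It was called in 5 of 20 alternative settings, among them the fit without 3XKO replicate 2 (1.02, adjusted p = 0.021). It was not called by limma-voom (adjusted p = 0.17) or with the replicate block (adjusted p = 0.33). Of 10 other erythroid genes, 0 were called, 7 had a positive difference and their median was 0.11. The summed erythroid level was 996 to 1348 CPM in the Dmrt2 controls, 1102 to 1257 in the Dmrt2 knockouts, 950 to 1138 in the 3XKO controls and 1030 to 1425 in the libraries labelled 3XKO, and its part in the Slc4a1 value was not tested. The remaining 2 type A genes were not called either, with 0.32 ± 0.09 for the adhesion receptor Adgrf5 (adjusted p = 0.21) and -0.11 ± 0.12 for the anion exchanger Slc26a7 (adjusted p = 0.81).

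**Figure D2:**
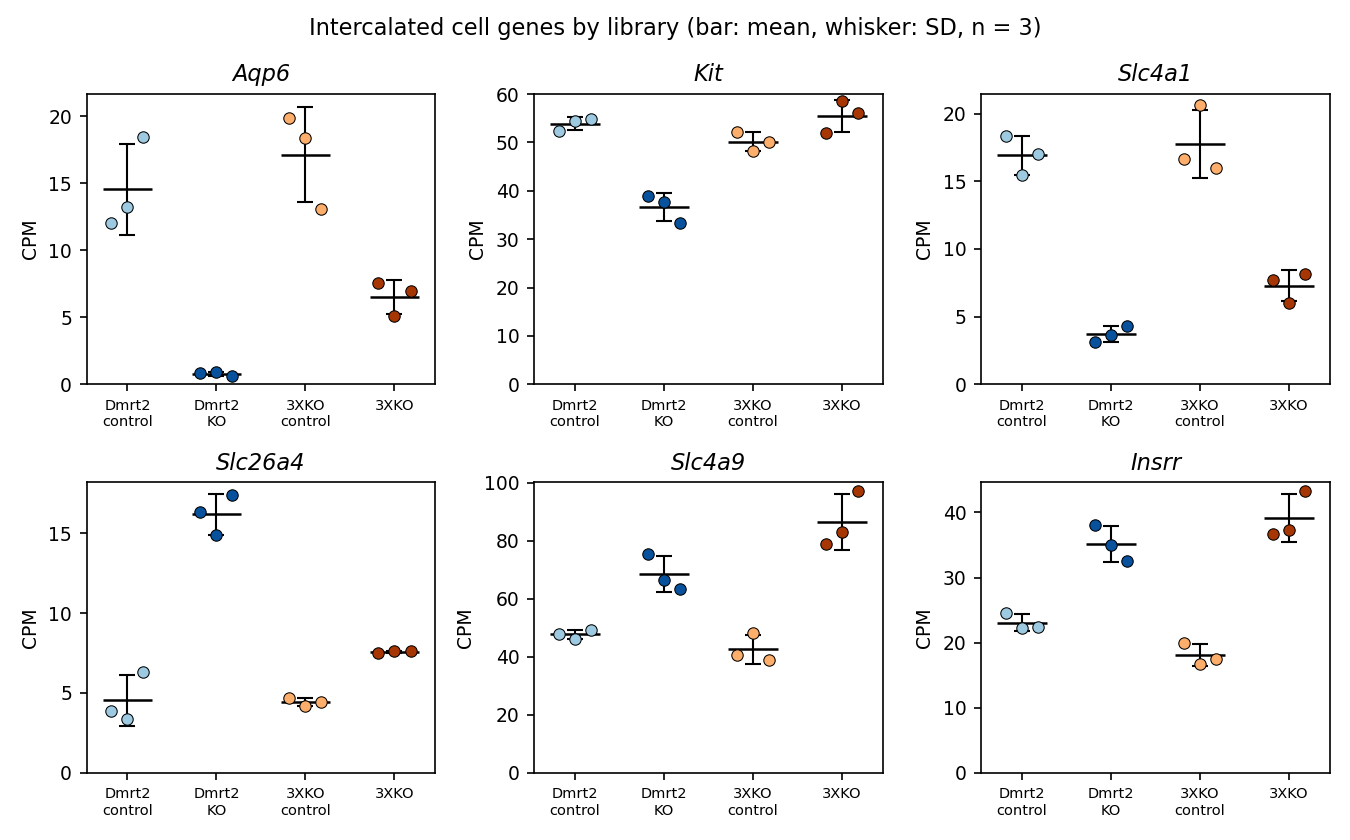
Levels in CPM of 3 type A genes (Aqp6, Kit, Slc4a1) and 3 type B or non-A non-B genes (Slc26a4, Slc4a9, Insrr) in the 12 libraries, with each point a library, the bar the group mean and the whisker the SD (n = 3). Aqp6 and Slc4a1 are lowest in the Dmrt2 knockouts and intermediate in the libraries labelled 3XKO, and Slc26a4 is highest in the Dmrt2 knockouts.

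Of 7 genes tested that mark type B or non-A non-B cells, 0 were called in either direction. An unadjusted p under 0.05 was seen in 4, beside 9.59% of all genes tested. Of the 7, 5 lay above 0 and 2 below, and their median was 0.18. Their values spread in both directions, from -1.06 to 0.54.

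Slc26a4 (chr12:31569826-31609968), which encodes pendrin, had the lowest value. It held 3.88, 3.39 and 6.32 CPM in the Dmrt2 controls, 16.3, 14.9 and 17.4 in the Dmrt2 knockouts, 4.68, 4.21 and 4.44 in the 3XKO controls and 7.51, 7.6 and 7.64 in the libraries labelled 3XKO. The Dmrt2 knockouts were the highest group, above the 3XKO libraries without overlap, while the 2 control groups overlapped. The difference was -1.06 ± 0.24, which the test did not call (adjusted p = 0.11). It was called in 4 of 20 alternative settings. One of these left out the third Dmrt2 control, the highest of its group, and gave -1.38 ± 0.15 (adjusted p = 0.00044).

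Slc4a9 (chr18:36661200-36689326), the blood-side exchanger of type B cells, had a value of the opposite sign. Its levels were 48.0, 46.1 and 49.2 CPM in the Dmrt2 controls, 75.3, 66.5 and 63.3 in the Dmrt2 knockouts, 40.7, 48.0 and 38.7 in the 3XKO controls and 78.8, 83 and 97.2 in the libraries labelled 3XKO. Here the libraries labelled 3XKO were the highest group. The difference of 0.51 ± 0.13 did not pass the test (adjusted p = 0.20).

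Insrr (chr3:87704258-87723408), a receptor that senses alkaline medium, held 24.6, 22.2 and 22.3 CPM in the Dmrt2 controls, 38.1, 34.9 and 32.5 in the Dmrt2 knockouts, 19.9, 16.8 and 17.5 in the 3XKO controls and 36.7, 37.2 and 43.3 in the libraries labelled 3XKO. The knockout groups overlapped and the control groups did not, and the difference was 0.51 ± 0.12 (adjusted p = 0.12). Oxgr1, the receptor for the urinary metabolite 2-oxoglutarate, held 11, 11.1 and 14.6, then 6.26, 7.85 and 6.81, then 19.9, 17.8 and 14.1, then 14.1, 12.8 and 15.7 CPM in the same order of groups. Unlike the other type B genes described, it was lowest in the Dmrt2 knockouts, and its difference of 0.54 ± 0.20 was not called (adjusted p = 0.38). The exchanger Slc4a8 had 0.17 ± 0.09 (adjusted p = 0.57), the adaptor gene Sh2d4b 0.18 ± 0.27 (adjusted p = 0.87) and the protease inhibitor gene Spink8 -0.34 ± 0.29 (adjusted p = 0.76).

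Genes shared by intercalated cell types showed no call among 16 tested. Of these, 11 lay above 0 and 5 below, and 4 had an unadjusted p under 0.05, beside 9.59% of all genes tested. The median was 0.07, which became -0.01 without the third 3XKO control. Foxi1 held 39.6, 38.9 and 45.9 CPM in the Dmrt2 controls, 35.8, 35.2 and 32.6 in the Dmrt2 knockouts, 42.2, 41.1 and 39.9 in the 3XKO controls and 43.4, 44.9 and 41.2 in the libraries labelled 3XKO. The Dmrt2 knockouts were again the low group, and the difference was 0.35 ± 0.09 (adjusted p = 0.20). Atp6v1b1, the proton pump subunit of these cells, had 0.34 ± 0.08 (adjusted p = 0.12), Rhbg, an ammonia transporter, 0.65 ± 0.23 (adjusted p = 0.37), and Hepacam2 0.50 ± 0.19 (adjusted p = 0.40).

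Other shared genes had differences nearer to 0. They included 0.27 for the proton pump subunit Atp6v1g3, 0.24 for the carbonic anhydrase Car2, 0.05 for Atp6v0d2, 0.04 for the ammonia channel Rhcg and 0.02 for the transcription factor Tfcp2l1. Below 0 lay Car12 at -0.02, the chloride channel subunit Bsnd at -0.04, Atp6v1c2 at -0.06, Atp6v0a4 at -0.09 and Car15 at -0.18. Clnk was measured with under 0.21 mean CPM in each group and had a difference of 0.76 ± 0.93. The 15 proton pump subunits found in all cells had 0 calls, 2 values above 0 and 13 below, and a median of -0.05.

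**Figure D3:**
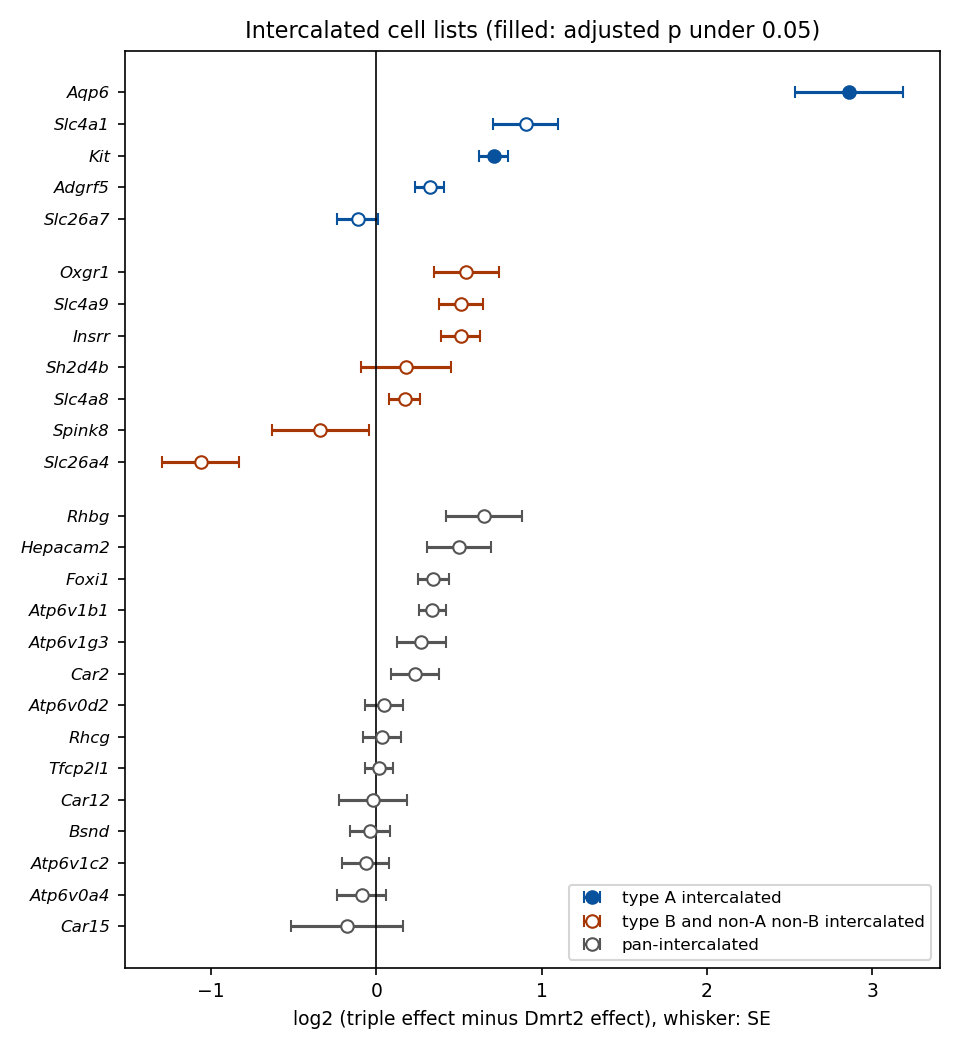
Difference between the triple effect and the Dmrt2 effect (log2, whisker SE) for tested members of 3 intercalated lists, with filled points for adjusted p under 0.05, Clnk being left out for its SE of 0.93. Aqp6 (2.86) and Kit (0.71) are the filled points, and Slc26a4 (-1.06) is the lowest value.

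Most named genes called outside the intercalated lists had smaller differences than Aqp6. Muc4, a membrane mucin of epithelia, held 2.43, 1.95 and 2.01 CPM in the Dmrt2 controls, 0.869, 0.876 and 0.954 in the Dmrt2 knockouts, 1.93, 1.51 and 2.25 in the 3XKO controls and 2.29, 2.09 and 2.01 in the libraries labelled 3XKO. It was low in the Dmrt2 knockouts alone, with a difference of 1.41 ± 0.27 (adjusted p = 0.045), and it was called in 4 of 20 alternative settings. Dnm3os, a non-coding RNA that hosts microRNAs of mesenchymal cells, had mean levels of 9.72, 7.30, 7.62 and 12.2 CPM in the Dmrt2 controls, Dmrt2 knockouts, 3XKO controls and libraries labelled 3XKO, and a difference of 1.10 ± 0.20 (adjusted p = 0.045), called in 7 of 20 alternative settings.

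In several called genes the 2 control groups differed more than the knockout groups. Col7a1, the collagen of anchoring fibrils, held 27.2, 27.4 and 26.7 CPM in the Dmrt2 controls, 28.1, 24.1 and 23.1 in the Dmrt2 knockouts, 16.5, 18.6 and 16.9 in the 3XKO controls and 25.1, 26.7 and 27.1 in the libraries labelled 3XKO. The 3XKO controls alone were low, and the difference was 0.72 ± 0.11 (adjusted p = 0.0098). Kcp, a secreted regulator of BMP signalling, had the same pattern, with means of 55.7, 55.0, 39.5 and 55.1 CPM and a difference of 0.51 ± 0.09 (adjusted p = 0.032). Col7a1 was called in 19 of 20 alternative settings and Kcp in 9.

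Pabpn1, the nuclear poly(A) binding protein, held 81.3, 84.6 and 77.6 CPM in the Dmrt2 controls, 71.5, 72.3 and 73.6 in the Dmrt2 knockouts, 41.9, 42.1 and 42.2 in the 3XKO controls and 51.6, 57.5 and 60.5 in the libraries labelled 3XKO. Both groups of the Dmrt2 line lay above both groups of the triple line, and the difference of 0.60 ± 0.08 (adjusted p = 0.0042) was called in 20 of 20 alternative settings. The phosphatase gene Ptp4a3 had 0.40 ± 0.07 (adjusted p = 0.028). Tbx3os1, which overlaps the transcription factor gene Tbx3 and was counted without strand, had 0.92 ± 0.17 (adjusted p = 0.045), beside 0.36 ± 0.07 for Tbx3 itself (adjusted p = 0.064). Ptp4a3 was called in 8 of 20 alternative settings and Tbx3os1 in 6.

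The remaining named genes called higher lie on chromosome 3 and were low. Cd1d2, an antigen-presenting molecule gene, held 1.36, 1.59 and 1.52 CPM in the Dmrt2 controls, 0.333, 0.373 and 0.36 in the Dmrt2 knockouts, 0.276, 0.233 and 0.201 in the 3XKO controls and 1.11, 0.401 and 1.26 in the libraries labelled 3XKO. As in the genes for which 3XKO replicate 2 stood apart, that library lay near the 2 low groups. The difference was 4.03 ± 0.49 (adjusted p = 0.0013) and 4.38 without that library (adjusted p = 2.35e-06). Rbm46, a germ cell RNA-binding protein gene, had the same split among the libraries labelled 3XKO, at 3.73, 1.39 and 3.12 CPM, and a difference of 2.93 ± 0.40 (adjusted p = 0.0067, and 4.97e-06 without replicate 2). Tmod4, a tropomodulin of muscle, had 2.90 ± 0.46 (adjusted p = 0.013). Rbm46 was called in 18 of 20 alternative settings, Tmod4 in 17, and Cd1d2 in all 19 that gave it a value.

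Among named genes called lower other than Hmx2, Fgb had the largest negative difference. This fibrinogen chain gene of liver held 1.75, 1.18 and 1.76 CPM in the Dmrt2 controls, 3.77, 3.50 and 3.33 in the Dmrt2 knockouts, 5.15, 4.07 and 5.79 in the 3XKO controls and 3.48, 3.84 and 2.15 in the libraries labelled 3XKO. The knockout groups overlapped and the controls lay on either side of them, and the difference was -1.84 ± 0.30 (adjusted p = 0.015), called in 17 of 20 alternative settings. Of the 7 liver genes tested, Fgb was the only one called, and their summed level was 105.8 to 152.4, 88.5 to 120, 92.1 to 143 and 123 to 172 CPM in the same order of groups.

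Hjurp, the chaperone that loads the centromere histone, held 163, 172 and 149 CPM in the Dmrt2 controls, 182, 187 and 178 in the Dmrt2 knockouts, 168, 168 and 164 in the 3XKO controls and 131, 136 and 130 in the libraries labelled 3XKO. The libraries labelled 3XKO were the low group, and the difference was -0.50 ± 0.08 (adjusted p = 0.0098). Of 8 proliferation genes, 0 were called, 1 lay above 0 and 7 below, and their median was -0.15. Hgsnat, a lysosomal enzyme gene, was also lowest in the libraries labelled 3XKO, with means of 49.3, 53.0, 51.1 and 40.0 CPM and a difference of -0.45 ± 0.08 (adjusted p = 0.045). Hjurp was called in 19 of 20 alternative settings and Hgsnat in 7.

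Flrt3, a membrane protein that acts in FGF signalling and adhesion, had means of 23.9, 29.1, 27.2 and 20.8 CPM and a difference of -0.66 ± 0.11 (adjusted p = 0.028). The other named genes called lower were the fucosyltransferase gene Fut10 at -0.58 ± 0.10 (adjusted p = 0.028), the zinc finger gene Zfp697 at -0.52 ± 0.09 (adjusted p = 0.031), the phospholipase gene Plcb1 at -0.50 ± 0.08 (adjusted p = 0.028) and Kif16b, a motor of endosomes, at -0.46 ± 0.08 (adjusted p = 0.035). Of 20 alternative settings, Flrt3 was called in 17, Plcb1 in 14, Fut10 and Zfp697 in 12 each and Kif16b in 10.

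Outside the rule for naming genes stand the 4 called genes with clone-like names, described after their values were seen, of which 2610016A17Rik is given above. Gm17783 was called lower, at -3.52 ± 0.50 (adjusted p = 0.0098). It held 0.628, 0.257 and 0.44 CPM in the Dmrt2 controls, 1.71, 1.92 and 0.923 in the Dmrt2 knockouts, 2.10, 3.86 and 4.42 in the 3XKO controls and 1.11, 0.865 and 1.07 in the libraries labelled 3XKO. The knockout groups overlapped, and the 3XKO controls were the high group. Gm7600 (4.71 ± 0.76) and Gm12121 (1.38 ± 0.26) were called higher (adjusted p = 0.045 for both).

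A difference between 2 effects is the gap between the knockout groups less the gap between the control groups, and both gaps were read for the 26 called genes. The knockout gap was the larger for 12 and the control gap for 14, so 46.2% had the larger gap between knockouts, beside 44.8% of 22221 genes tested with all groups above 0. The libraries labelled 3XKO and the Dmrt2 knockouts did not overlap in 17 of the 26 (40.5% of all genes tested), and the 2 control groups did not overlap in 19 of the 26 (40.4% of all genes). For Aqp6 the knockout gap was 3.05 and the control gap 0.23, whereas for Kif16b the values were 0.17 and 0.63. Aqp6, Kit, Muc4, Dmrt2 and Hjurp were among the genes that differed mainly between knockouts. Col7a1, Kcp, Ptp4a3, Fgb, Zfp697 and Kif16b were among those that differed mainly between the controls. The control gap was also the larger in size for Cd1d2 (-2.655, beside a knockout gap of 1.377), Tmod4 (-1.72 and 1.18) and Pabpn1 (-0.949 and -0.359).

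**Figure D4:**
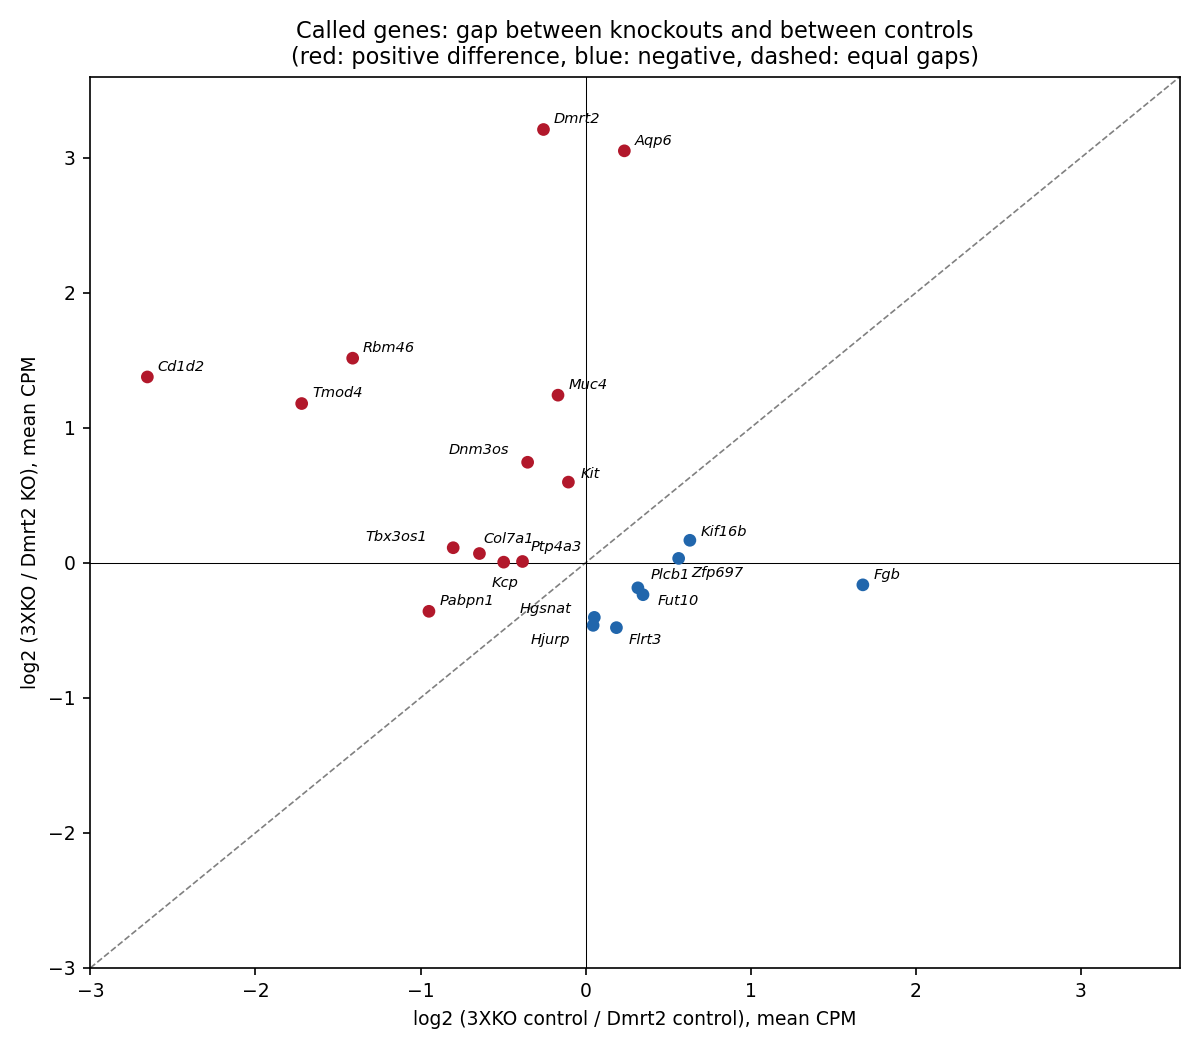
Gap between the control groups (x axis, log2 of 3XKO control over Dmrt2 control, mean CPM) and between the knockout groups (y axis, log2 of 3XKO over Dmrt2 KO) for 21 named called genes without Hmx2; red marks a positive and blue a negative difference, and the dashed line equal gaps. Dmrt2 (3.21) and Aqp6 (3.05) are highest on the y axis, and Kcp, Col7a1 and Ptp4a3 lie near 0 on it.

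The difference was then set against the effect of Hmx3 Hmx2 loss measured in its own line, by subtracting that effect in a fit of all 24 libraries. If Dmrt2 is lost alike in both lines, this three-way difference asks whether the added loss changes a gene differently than the same loss with Dmrt2 in place. The levels of Dmrt2 RNA given above do not show such a like loss. It was called for 88 of 22101 genes tested (0.398%), 59 higher (0.267%) and 29 lower (0.131%), with 2560 genes (11.6%) at an unadjusted p under 0.05. Of the 26 genes called above, 19 were called here too, all with the same sign, which is 73.1% of the 26 and 21.6% of the 88. The 2 tests share the 12 libraries, so this overlap is no independent support. With the Y-linked covariate the number called was 32, and leaving out single libraries gave 33 to 138.

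Aqp6 and Kit kept their calls, at 2.69 ± 0.39 (adjusted p = 0.0033) and 0.53 ± 0.10 (adjusted p = 0.018), and Dmrt2 had 3.16 ± 0.17 (adjusted p = 1.96e-12). Slc4a1 had 0.62 ± 0.19 (adjusted p = 0.19), Slc4a9 0.49 ± 0.13 (adjusted p = 0.12) and Insrr 0.57 ± 0.20 (adjusted p = 0.27). For Slc26a4 the value was 0.24 ± 0.29 (adjusted p = 0.81). In the Hmx3; Hmx2 line its levels were 2.79 to 4.53 CPM in controls (median 3.54) and 1.14 to 1.68 in knockouts (median 1.58), so the 2 groups did not overlap. The Slc26a4 difference was -1.06 ± 0.24, not called, and the Hmx3 Hmx2 effect was -1.31 ± 0.14. The test of their difference was not passed, which does not show that they are equal, given its SE of 0.29.

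Tldc2, a TLDc domain gene chosen after its values were seen, behaved otherwise. It held 1.24, 1.41 and 1.63 CPM in the Dmrt2 controls, 9.55, 9.98 and 9.04 in the Dmrt2 knockouts, 0.754, 1.28 and 0.824 in the 3XKO controls and 5.19, 4.12 and 6.57 in the libraries labelled 3XKO. In the Hmx3; Hmx2 line it ranged from 0.507 to 1.41 CPM in controls (median 0.728) and from 0.0302 to 0.107 in knockouts (median 0.085). It was therefore higher than controls in both groups labelled as Dmrt2 knockouts and near 0 in the Hmx3 Hmx2 knockouts, with no overlap in any of the 3 lines. Its difference was -0.25 ± 0.28 (adjusted p = 0.81), the Hmx3 Hmx2 effect was -3.50 ± 0.28, and the three-way difference was 3.24 ± 0.46 (adjusted p = 0.0015), called in 30 of 30 alternative settings. Only 26 reads of Tldc2 were counted over the 6 Hmx3; Hmx2 knockouts, where 3 reads were worth 0.0454 to 0.0574 CPM. The size of the Hmx3 Hmx2 effect and of the three-way difference is therefore uncertain.

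**Figure D5:**
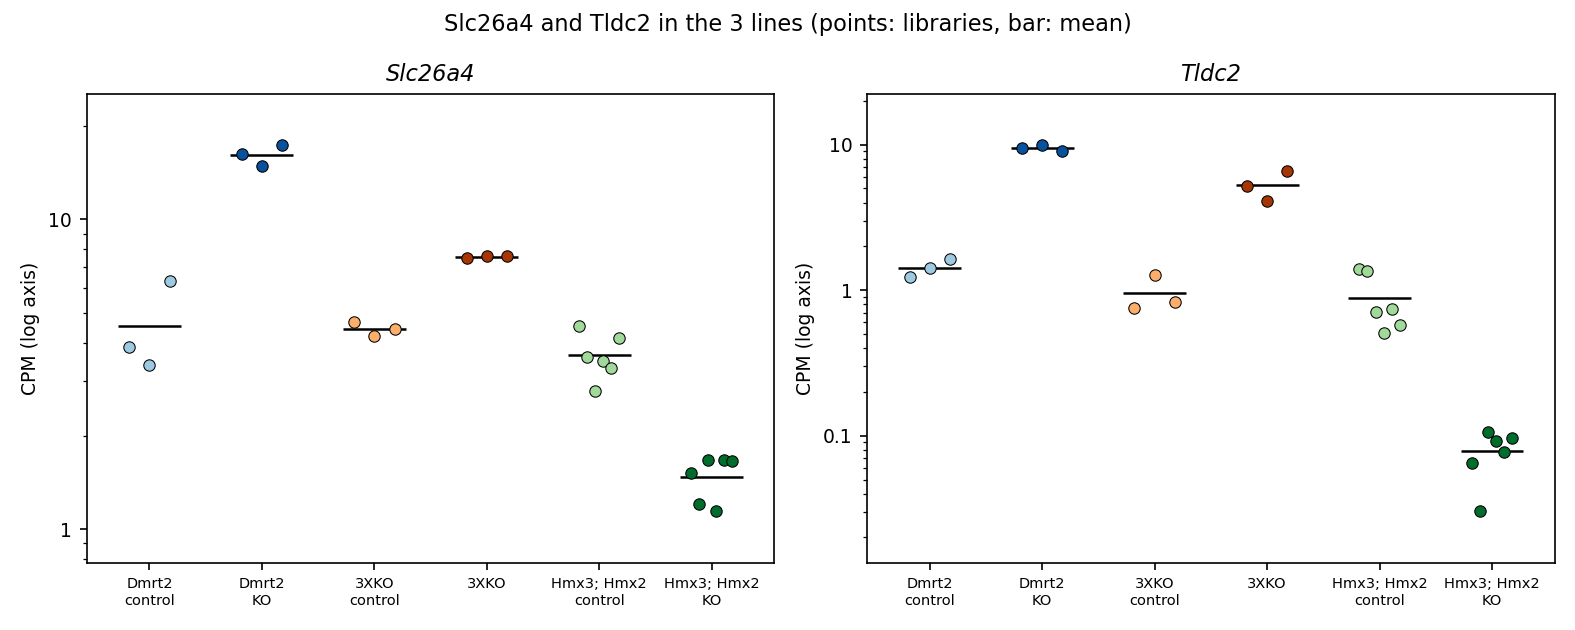
Levels of Slc26a4 and Tldc2 in CPM (log axis) in the 6 groups of the 3 lines, each point a library and the bar the group mean (n = 3, and n = 6 in the Hmx3; Hmx2 line). Both genes are lower in the Hmx3; Hmx2 knockouts than in their controls, and in the libraries labelled 3XKO both lie above their controls and below the Dmrt2 knockouts.

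The rule for naming genes gave 6 higher and 6 lower in the three-way difference. Among those higher were Tpm3-rs7 (10.46), Hsd3b2 (6.91), Angptl7 (4.38), Rps3a2 (4.16) and Cd1d2 (4.05). Tpm3-rs7, Hsd3b2, Rps3a2 and Cd1d2 belong to the genes for which 3XKO replicate 2 stood apart. The lower genes were Fgb (-1.81), the potassium channel subunit gene Kcne1 (-1.02), the decarboxylase gene Ddc (-0.90), Syne3 (-0.80), Actn3 (-0.74) and Mctp2 (-0.67). Their adjusted p ran from 0.0084 for Fgb to 0.047 for Mctp2. Of 30 alternative settings, Fgb was called in 30, Kcne1 in 28, Syne3 in 25, Ddc in 19, Actn3 in 13 and Mctp2 in 8. Kcne1 held 4.56, 4.78 and 5.33 CPM in the Dmrt2 controls, 4.81, 4.64 and 4.21 in the Dmrt2 knockouts, 11, 9.43 and 7.12 in the 3XKO controls and 3.85, 4.62 and 4.85 in the libraries labelled 3XKO. Among these 4 groups the 3XKO controls were the high one. In the Hmx3; Hmx2 line, Kcne1 ranged from 7.66 to 9.11 CPM in controls and from 7.89 to 11.3 in knockouts. Both groups of that line thus lay near the 3XKO controls.

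Lists for other kidney cells held no called gene. The 12 principal cell genes, which mark the water and sodium transporting cells beside intercalated cells in the collecting duct, had 5 values above 0, 7 below, 0 with an unadjusted p under 0.05 and a median of -0.05. The 16 Notch pathway genes, a pathway known to set the balance of principal and intercalated cells, had a median of 0.02, with 10 above 0. Medians were 0.02 for 9 ureteric tip genes, 0.09 for 9 ureteric epithelium genes, 0.21 for 8 nephron progenitor genes, -0.11 for 8 podocyte genes, -0.04 for 12 proximal tubule genes, -0.06 for 7 genes of the loop of Henle and -0.30 for 6 genes of the distal convoluted tubule.

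Among non-epithelial lists, 9 of 9 stroma genes lay above 0 with a median of 0.11, and 1 had an unadjusted p under 0.05. Over all genes tested, 49.4% lay above 0 and 9.59% had an unadjusted p under 0.05. The endothelium had a median of -0.09 over 8 genes and macrophages -0.34 over 8, of which 6 lay below 0 and 3 had an unadjusted p under 0.05. The complement gene C1qa was the largest of these at -0.65 ± 0.14 (adjusted p = 0.0996). The summed macrophage level was 105.8 to 118.6 CPM in the Dmrt2 controls, 113 to 118 in the Dmrt2 knockouts, 128 to 160 in the 3XKO controls and 117 to 126 in the libraries labelled 3XKO, so the 3XKO controls were the high group. Medians were -0.18 for adrenal genes, 0.29 for skeletal muscle, -0.40 for 3 adipose genes and 0.07 for 10 immediate early and heat shock genes, with 0 called in each.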

How the data were processed

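RNA of whole embryonic day 18.5 mouse kidneys was read at 150 bp, per the labels. The authors deposited raw read counts, 54393 genes in each of 4 tables, not normalized. The submitters' processing notes name fastp 0.20.1, STAR 2.7.0e, featureCounts 2.0.1 and build mm39. The file headers give featureCounts 2.0.3 and a filtered GENCODE vM29 annotation. Per the file headers, featureCounts ran in paired mode with each read of a pair counted, with no strand setting, and multi-mapping and overlapping reads were dropped. A pair can therefore give 2 counts, so counting intervals and the floor of 3 reads are too narrow and cover counting error only. Reads of a gene and its antisense partner cannot be told apart. The tables hold 2 further columns without a matching sample, not used here.

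Groups and replicate numbers are those of the sample titles. Counts of 12 libraries were fitted in edgeR 4.0.16 (R 4.3.3) with TMM scaling, filterByExpr (minimum count 10, total 15) and the robust quasi-likelihood F test. The contrast was (3XKO minus 3XKO control) minus (Dmrt2 KO minus Dmrt2 control), with Benjamini-Hochberg adjustment over all genes tested and a threshold of 0.05. The three-way contrast used 24 libraries with the 4 tables as terms. SE is the absolute log2 value divided by the square root of F. Residual degrees of freedom were 8 and 17, and the common biological coefficient of variation was 0.143. Replicate pairs of the 12 libraries differed by more than sampling noise (chi-square per degree of freedom 9.11 to 29.71), so none was treated as a duplicate. The fits were tested on simulated data.

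Named genes are Dmrt2, Hmx2 and Hmx3, every tested member of the 3 intercalated lists, and, among called genes with a mean of at least 1 CPM in a group and without clone-like, pseudogene or sex-linked names, up to 15 higher and 15 lower (6 and 6 for the three-way difference). Of these, 2 are not reported here. The members and the 23 gene lists were chosen with earlier results of these data known, and no set test was run. Alternatives were DESeq2 1.42.0, limma-voom (limma 3.58.1), RLE scaling, other filters, a Y-linked covariate, a replicate block, a joint fit and leaving out each library. Promoter sequences are from RefSeq (GRCm38.p6), and gene coordinates are those of the deposited tables (mm39).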

Additional observations from a re-analysis of the deposited data

Results flagged for a closer look

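In groups of 6 libraries, which here are only those of the Hmx3; Hmx2 line, 32 groups of values of named genes were tested for a single library far from the others (Dixon's test), and chance flags about 1 in 20. 2 were flagged. Cd1d2 was at 0.512 CPM in replicate 6 of the Hmx3; Hmx2 controls, with the nearest other control at 0.347. Angptl7 was at 2.46 CPM in replicate 1 of the same controls, with the nearest other at 1.01. Angptl7 is named for its three-way difference of 4.38, which was called in 7 of 29 alternative settings, and Cd1d2 for one of 4.05, called in 29 of 29.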

How the results depend on the processing

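Of 22 named genes called in the difference, 22 kept their sign in every alternative that gave a value and 5 (Dmrt2, Hmx2, Cd1d2, Kit and Pabpn1) were called in each. Of 13 named in the three-way difference, 13 kept their sign and 6 their call. The number of called genes depended on the test and the libraries, and the cause was not tested. Against 26 (16 higher, 10 lower), DESeq2 called 187 (106 and 81), no filter on low counts 134 (72 and 62), the joint fit of 24 libraries 87 (53 and 34), limma-voom 18 (10 and 8), a mean of at least 1 CPM 17 (9 and 8) and the Y-linked covariate 15 (9 and 6). Leaving out each library gave 9 to 46 (7 to 29 higher, 2 to 19 lower), with 9 without Dmrt2 KO replicate 2, 46 without 3XKO replicate 2, 17 without 3XKO replicate 3, and 39 without Dmrt2 control replicate 3. For the three-way difference (88; 59 and 29), DESeq2 called 243 (166 and 77) and the Y-linked covariate 32 (20 and 12), and leaving out each library gave 33 to 138 (21 to 92 higher, 12 to 46 lower). The libraries that moved it most were Dmrt2 KO replicates 2 (34 without it) and 3 (40), Dmrt2 control replicate 3 (138), 3XKO replicate 3 (33), 3XKO control replicate 3 (40) and Hmx3; Hmx2 control replicate 1 (58). List medians ranged from 0.65 to 0.75 for type A, 0.14 to 0.37 for type B with non-A non-B, and -0.014 to 0.149 for shared genes.

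With the replicate number of each table as a replicate block, 11 genes were called (9 higher, 2 lower; 7 of the 26), and 59 in the three-way difference (37 higher). Same-numbered libraries correlated at 0.12, 0.09 and 0.07 in the Dmrt2 table, each best with its own number, and at -0.27, -0.22 and -0.10 in the 3XKO table, so the numbers were not taken as pairs.

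Values near 0 changed sign in some of the fits that left out 1 library, none of them called. Their ranges included -0.054 to 0.121 for Rhcg, -0.132 to 0.128 for Car12, -0.359 to 0.016 for Car15, -0.042 to 0.121 for Atp6v0d2, -0.178 to 0.015 for Atp6v1c2, -0.033 to 0.056 for Tfcp2l1, -0.161 to 0.019 for Bsnd, -0.092 to 1.157 for Clnk and -0.45 to 0.007 for Tldc2. With 3 libraries a group, differences under the SE given cannot be told from 0, and some of several times their SE were not called either. Examples are -1.06 ± 0.24 for Slc26a4 (adjusted p = 0.11) and 0.65 ± 0.23 for Rhbg (adjusted p = 0.37). Genes under the floor of 0.0236 to 0.0487 CPM cannot be detected at this depth.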

Other observations

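Some called genes lie close together. Called genes with ordinary names within 20 Mb of each other formed 3 runs. On chromosome 3, Rbm46, Fgb, Cd1d2, Tmod4 and Zfp697 lie between 82744535 and 98661128 (mm39, 15.9 Mb), where 57 of 356 genes tested (16%) had an unadjusted p under 0.05. On chromosome 2, Plcb1, Flrt3 and Kif16b lie between 134627987 and 142743451 (8.12 Mb), where 6 of 20 genes tested (30%) did. On chromosome 8, Hgsnat and Fut10 lie between 26434481 and 31751766 (5.32 Mb), with 7 of 28 (25%). Over all genes tested the share was 9.59%. The called genes that set the ends of each run are among these counts. They raise the shares, most of all on chromosomes 2 and 8, so the shares are no test of the runs. Chromosome 3 held 5 of the 26 called genes (19.2%) and 5.38% of the genes tested.

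The intercalated genes Insrr and Rhbg, and Hsd3b2 and Tpm3, also lie inside the run on chromosome 3. Aqp6 (chromosome 15), Kit (chromosome 5), Slc4a1 (chromosome 11) and Slc26a4 (chromosome 12) lie on chromosomes without such a run. Slc4a1 and Slc26a4 were not called, so they could not form one. Ptp4a3 on chromosome 15 and Tbx3os1 on chromosome 5 were also called, but lie too far from Aqp6 and Kit to form a run. On chromosome 11, Gm12121 was called and was left out for its clone-like name. The absence of a run is therefore no test of these genes. The runs were defined after the called genes were known, and their cause was not tested.

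Syne3, a nuclear envelope gene, held 5.51, 5.49 and 5.54 CPM in the Dmrt2 controls, 7.46, 8.63 and 7.6 in the Dmrt2 knockouts, 12, 12.4 and 12.2 in the 3XKO controls and 11.8, 11.6 and 10.2 in the libraries labelled 3XKO. Both groups of the triple line lay above both groups of the Dmrt2 line.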
